A study of Mus musculus with 7 samples.

Results

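Contractile genes of visceral smooth muscle were followed through loss and return of parietal cells in the mouse gastric corpus, the acid-secreting body of the stomach. The group comprised 8 genes of 22180 measured: Acta2, Actg2, Myh11, Tagln, Cnn1, Des, Mylk and Lmod1. They were chosen by name as textbook genes of smooth muscle and read as a gauge of how much muscle RNA each sample held. Each had 1 probe set annotated to it alone, and all 8 lay in the upper 11090 genes by mean log2 signal. All mice carried the Atp4b-DTR transgene, including the control, which places a diphtheria toxin receptor under the parietal cell gene Atp4b. Mice were adults of 8 to 12 weeks and received 225 ng of toxin per mouse, or saline, by daily injection on 3 days. Of the 7 arrays, 1 was the saline control, 1 each came from 24 h and 36 h after the last toxin injection, and pairs of 2 came from 48 h and 72 h. The labels call the tissue gastric corpus and do not state whether the muscle coat was left on, whether an array holds 1 animal, or what the letters A and B in the 72 h titles mean. The p-values for 48 h and 72 h thus rest on the spread within the 48 h and 72 h pairs, and those for slopes on the spread of the toxin arrays about a line, and either may be technical.

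Visceral smooth muscle forms the outer coat of the stomach and the thin muscularis mucosae, and contracts when calcium and calmodulin activate myosin light chain kinase, which lets myosin slide along smooth muscle actin. Calponin, transgelin and leiomodin bind the actin filaments, and desmin joins the contractile units into a network. Transcription of these genes depends in large part on serum response factor (SRF) and its partner myocardin, which act through a short promoter element called the CArG box.

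The CArG box is shown here because it is the element through which the contractile genes are known to be controlled together. It has 10 bases, with a pair of C, a centre of 6 bases that are each A or T, and a pair of G, and it reads the same on both strands. The 250 bases before the start site were searched in the RefSeq promoter table (GRCm38.p6), which held 5 of the 8 genes: Acta2, Cnn1, Des, Lmod1 and Mylk. An exact match was found for 0 of these 5, against 1.47% of all 32851 windows in the table. With at most 1 departure inside the centre, 1 of the 5 matched, Acta2, against 8.59% of all windows. Acta2 held 2 such boxes, starting 84 and 34 bases before the start site, each with 1 departure. Among other genes of the contractile apparatus, 6 of 34 windows held an exact match, including Myl9, the regulatory light chain of smooth muscle myosin. Srf held 2 exact matches. Sequence outside these 250 bases was not searched. With 5 windows and exact matches this rare, 0 of 5 says little about whether the members carry the box. A match of letters is a description of the window and no evidence of binding. In the windows printed, the capitals mark the boxes found with at most 1 departure, and each runs 5′ to 3′ on the strand of its gene: chr19:34255378-34255477 (minus) for Acta2, chr2:156775283-156775394 (plus) for Myl9 and chr17:46556195-46556264 (minus) for Srf.
Acta2: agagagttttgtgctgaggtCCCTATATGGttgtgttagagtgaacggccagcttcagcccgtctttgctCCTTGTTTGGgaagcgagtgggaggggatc
Myl9: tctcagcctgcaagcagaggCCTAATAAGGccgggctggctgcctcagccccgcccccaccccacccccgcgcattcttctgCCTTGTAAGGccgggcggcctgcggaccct
Srf: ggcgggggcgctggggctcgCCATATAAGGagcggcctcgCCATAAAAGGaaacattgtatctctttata

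Values of the series as a whole set the frame for these genes. The proton pump genes Atp4a and Atp4b, defining markers of the parietal cell, were bright on every array and lowest at 24 h, with log2 signals of 11.37 and 10.68 against 12.78 and 12.94 on the control array. The arrays also showed 2 sex patterns: Xist, the RNA that silences an X chromosome in females, read 8.13 in log2 signal for the control and 9.17 at 24 h, against 2.70 to 3.27 on the other arrays. Differences of 36, 48 and 72 h from the control therefore also compare these patterns, and sex and time cannot be told apart there. The same lone control array enters every difference from the control, so the comparisons with it share that array.

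The 8 contractile genes stayed within 2-fold of the control on every toxin array. The furthest from it was Tagln, 0.84 above the control on the second 72 h array. Their signals spanned a median log2 range of 0.50 over the 7 arrays, against 0.45 for the these upper 11090 genes and 0.40 for all genes. The widest range belonged to Tagln, at 0.93, and 7.6% of all genes had a range at least that wide. In limma, with Benjamini-Hochberg adjustment over 22180 genes, 0 of the 8 passed an adjusted p of 0.05 in any comparison, where 0.0% of all genes passed as well. In whole corpus RNA, fewer muscle cells and less RNA per cell cannot be told apart.

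**Figure D1:**
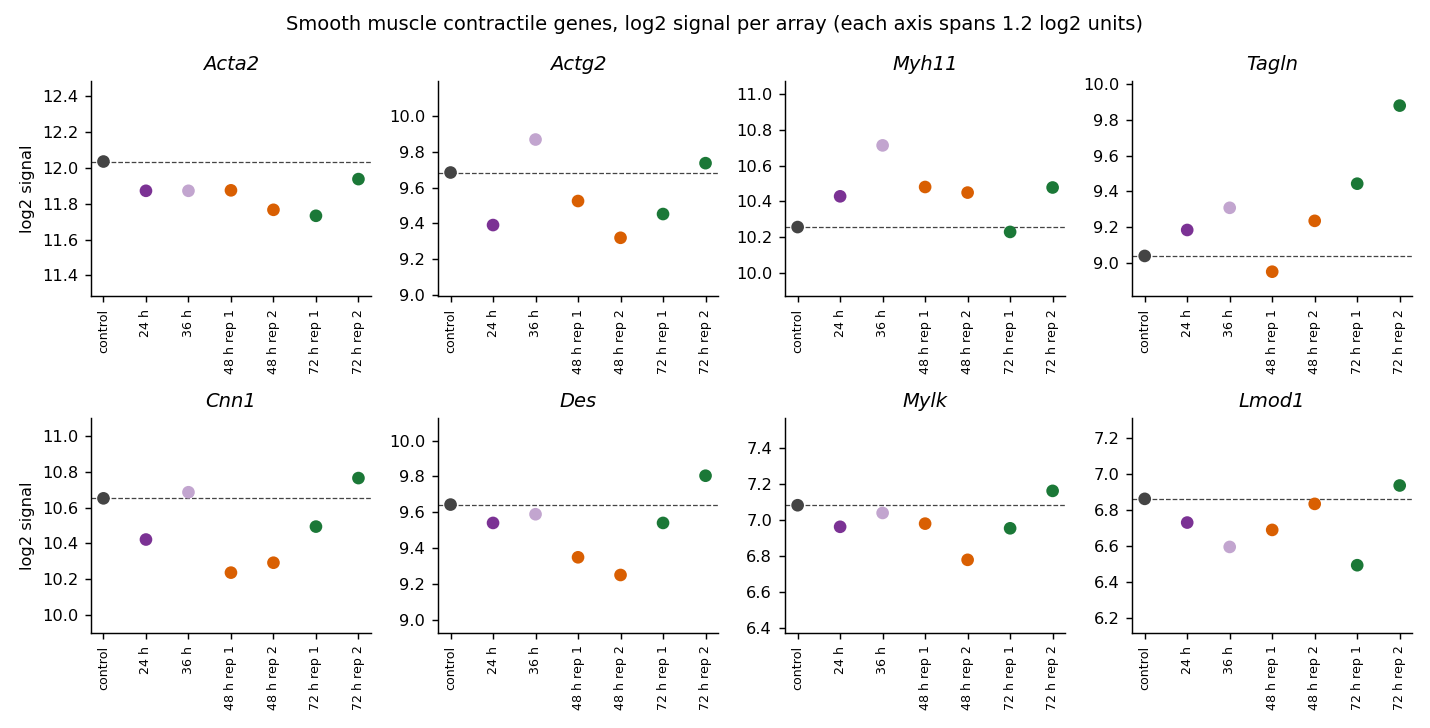
Log2 signal of the 8 contractile genes on the 7 arrays, with 1 point per array and a dashed line at the control value. Every axis spans the same width, so the wide spread of Tagln and the narrow spread of Acta2 (range 0.30) can be compared directly.

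Among the filament proteins, Acta2 encodes the smooth muscle alpha actin, which vessels, muscle coat and myofibroblasts share. Its log2 signal was 12.04 on the control array, 11.87 and 11.87 for the 24 h and 36 h arrays, 11.87 and 11.77 in the 48 h pair and 11.73 and 11.94 in the 72 h pair. It was the only member below the control on all 6 toxin arrays, a pattern seen in 22.6% of all genes. The groups at 48 h and 72 h overlapped.

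Actg2 encodes the gamma actin typical of gut and other visceral muscle. Its log2 signal was 9.68 on the control array, 9.39 and 9.87 for the 24 h and 36 h arrays, 9.52 and 9.32 in the 48 h pair and 9.45 and 9.74 in the 72 h pair. The 36 h array was the highest and the second 48 h array the lowest, and the 48 h and 72 h groups overlapped.

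Myh11, the smooth muscle myosin heavy chain, had log2 signals of 10.26 on the control array, 10.43 and 10.71 for the 24 h and 36 h arrays, 10.48 and 10.45 in the 48 h pair and 10.23 and 10.48 in the 72 h pair. It differed from the actins in lying above the control on 5 of the 6 toxin arrays, with the peak at 36 h.

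Of the actin-binding proteins, Tagln (transgelin, or SM22 alpha, which binds actin filaments and is an early gene of smooth muscle differentiation) varied most. Its log2 signal was 9.04 on the control array, 9.19 and 9.31 for the 24 h and 36 h arrays, 8.95 and 9.24 in the 48 h pair and 9.44 and 9.88 in the 72 h pair. Both 72 h arrays lay above all the other arrays, and the second was 0.44 above the first.

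Cnn1, calponin, which binds actin and restrains myosin activity, had log2 signals of 10.65 on the control array, 10.42 and 10.69 for the 24 h and 36 h arrays, 10.24 and 10.29 in the 48 h pair and 10.49 and 10.76 in the 72 h pair. Both 48 h arrays were below every other array, and the 72 h arrays lay on either side of the control.

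Lmod1, leiomodin, which seeds actin filaments, had log2 signals of 6.86 on the control array, 6.73 and 6.60 for the 24 h and 36 h arrays, 6.69 and 6.84 in the 48 h pair and 6.49 and 6.94 in the 72 h pair. The 72 h arrays held both its lowest and its highest value, 0.44 apart, so that the replicate difference equalled the whole range of the gene.

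Des encodes desmin, the intermediate filament protein of muscle. Its log2 signal was 9.64 on the control array, 9.54 and 9.59 for the 24 h and 36 h arrays, 9.35 and 9.25 in the 48 h pair and 9.54 and 9.80 in the 72 h pair. As for calponin, both 48 h arrays were the lowest. A further probe set annotated to Des together with Gm15179 was dim, with log2 signals of 4.22 to 4.58, and was not used.

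Mylk, myosin light chain kinase, the enzyme that starts contraction, had log2 signals of 7.08 on the control array, 6.96 and 7.04 for the 24 h and 36 h arrays, 6.98 and 6.78 in the 48 h pair and 6.95 and 7.16 in the 72 h pair. The second 48 h array was the lowest and the second 72 h array the highest, and the pairs overlapped.

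At 24 h after toxin, when the parietal cell genes were lowest, 6 of the 8 contractile genes were below the control and 2, Myh11 and Tagln, were above it. Among all genes 46.6% were lower and 44.8% higher. The median difference was -0.13, against 0.00 over all genes. The largest was -0.29, for Actg2. Differences of at least 2-fold were found in 0 of the 8 and in 2.88% of all genes. The 24 h array shared the sex pattern of the control. There was no replicate, and no test was made.

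At 36 h the genes split evenly, with 4 above and 4 below the control, beside 44.4% and 46.4% of all genes, and a median difference of 0.00. Myh11 was 0.46 above the control and Tagln 0.27, while Lmod1 was -0.27 from it. At least 2-fold differences were again found in 0 of the 8, against 2.54% of all genes, and there was no replicate to test them.

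At 48 h, 6 of the 8 genes lay below the control on both arrays, where 34.4% of all genes did, and the median fitted difference was -0.21, against 0.00 over all genes. Cnn1 had the largest, -0.39 ± 0.14 (SE; limma adjusted p = 0.297), followed by Des at -0.34 ± 0.145 (limma adjusted p = 0.347). Actg2 was at -0.26 ± 0.18, Acta2 at -0.21 ± 0.12, Mylk at -0.20 ± 0.15 and Lmod1 at -0.10 ± 0.23. Myh11 lay above the control on both arrays, at 0.21 ± 0.13, which 31.9% of all genes did, and Tagln lay on either side of it, at 0.05 ± 0.26. In limma, 0 of the 8 had an unadjusted p under 0.05 here, against 19.7% of all genes. The 95% confidence interval for Cnn1 ran from -0.83 to 0.06. When the fit held the 48 h and control arrays alone, 2 of the 8 had an unadjusted p under 0.05, Cnn1 and Myh11, beside 3840 of all 22180 genes in that fit, with a smallest limma adjusted p of 0.248.

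At 72 h the median difference from the control was -0.02. Tagln had the largest, 0.62 ± 0.26 (SE; limma adjusted p = 0.362), or 1.54-fold, with a 95% confidence interval of -0.18 to 1.42, and it was the only member above the control on both arrays. Without the second 72 h array its difference was 0.40. Acta2, at -0.20 ± 0.12, was the only member below it on both. Either pattern was common among all genes, at 34.2% and 33.9%. The other 6 ranged from -0.15 for Lmod1 to 0.10 for Myh11, and their 72 h arrays lay on either side of the control. Unadjusted p-values under 0.05 numbered 0 of 8, against 17.9% of all genes. Without the second 72 h array the median was -0.14 and without the first it was 0.10, so the sign of the group's difference from the control rested on which array was kept.

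Between 48 h and 72 h, 6 of the 8 genes were higher at the later time, as were 11406 of all 22180 genes. The median difference was 0.18, against 0.00 over all genes. The difference was 0.37 ± 0.12 for Des and 0.36 ± 0.12 for Cnn1, both with a limma adjusted p of 0.705 and unadjusted p-values of 0.0481 and 0.0489. For Tagln it was 0.57 ± 0.21 (limma adjusted p = 0.728). For these 3 genes both 72 h arrays lay above both 48 h arrays, as they did for 16.7% of all genes. In the fit, 2 of the 8 had an unadjusted p under 0.05, beside 7.07% of all genes, and with the mean-variance trend in eBayes 0 of 8 did. Without the second 72 h array, or without either 48 h array, neither Cnn1 nor Des did. The differences without the second 72 h array were 0.24 for Des, 0.23 for Cnn1, 0.35 for Tagln, 0.07 for Mylk and 0.03 for Actg2. They were of opposite sign for Lmod1 (-0.27), Myh11 (-0.23) and Acta2 (-0.09). A 48 h array was the lowest of the 7 for 5 of the 8, against 28.5% of all genes. Myh11 was at -0.11 ± 0.11 and Lmod1 at -0.05 ± 0.19, and 0 of the 8 were lower without overlap, against 13.0% of all genes. Of 13 parietal cell genes, 10 were also higher at 72 h than at 48 h (median over the list 0.58), as were 5 of 6 adipocyte markers (median 0.30). Other lists went both ways, with 9 of 12 fibroblast, 9 of 12 epithelial and 1 of 5 chief cell genes higher. Their part in the muscle values was not tested. As a slope over the 6 toxin arrays, Tagln was at 0.25 ± 0.13 per 24 h (limma adjusted p = 0.626), and the other 7 genes lay between -0.10 and 0.08. Without the second 72 h array the slope of Tagln was 0.098. The 24 h array differs in sex pattern from the other toxin arrays, so sex and time cannot be told apart in the slopes either. Here 0 of the 8 had an unadjusted p under 0.05, beside 8.7% of all genes.

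**Figure D2:**
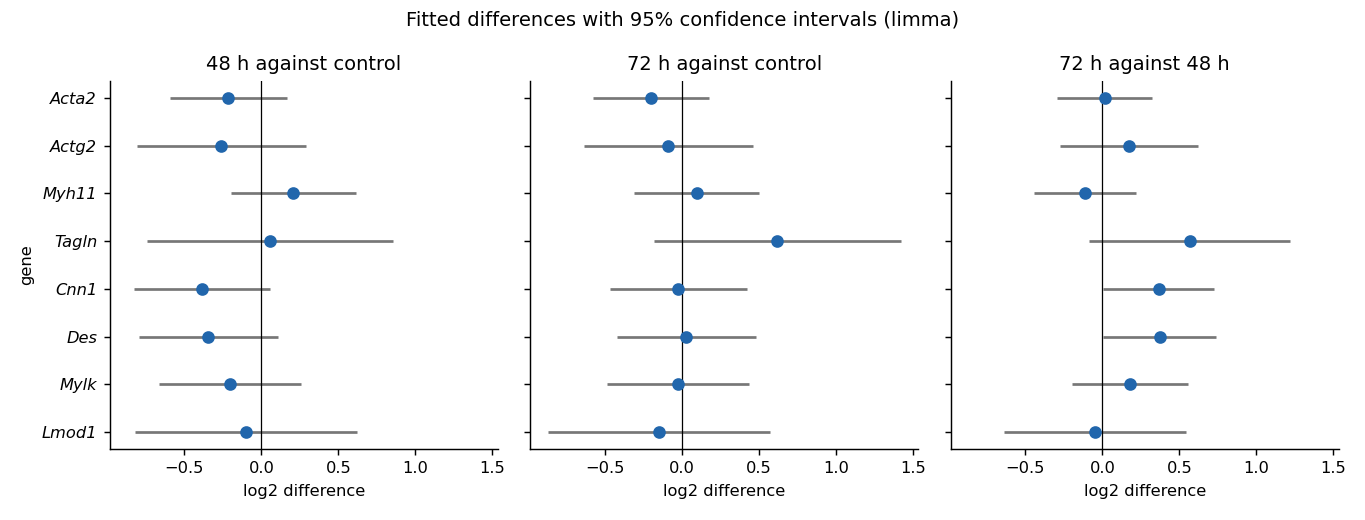
Fitted log2 differences of the 8 contractile genes in the 3 tested comparisons, with limma's 95% confidence intervals as bars (2 arrays at 48 h and at 72 h, 1 control). Intervals against the control all cross 0, and those of Cnn1 and Des at 72 h against 48 h start just above it, at 0.0032 and 0.0055, before adjustment over all genes.

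The 2 arrays of 72 h differed more in these genes than the 2 arrays of 48 h. All 8 were higher on the second 72 h array than on the first, by 0.20 to 0.44 with a median of 0.27, while 45.9% of all genes were higher there and the median over all genes was 0.00. The second 72 h array also held the highest value of the 7 arrays for 5 of the 8 (Tagln, Cnn1, Des, Mylk and Lmod1), which it did for 13.2% of all genes. Within the 48 h pair, 3 of 8 were higher on the second array, beside 43.7% of all genes, with a median of -0.06. All 12 fibroblast markers were likewise higher on the second 72 h array than on the first, with a median of 0.22. The mean log2 signal of that list was 7.52 and 7.84 on the 72 h arrays, 7.68 and 7.49 on the 48 h arrays, and 7.83 on the control. That mean covers genes on opposite sides of the control. Of the 12, 6 lay below it on all 6 toxin arrays and 4 above it on all 6, where 22.6% and 20.2% of all genes did. On the second 72 h array Col1a1 was at 0.90 from the control and Dcn at -0.79. Epithelial markers were higher on the second 72 h array in 4 of 12 cases, and parietal cell markers in 10 of 13 cases. Receptor, channel and signalling genes of smooth muscle were higher there in 17 of 20 cases (median 0.17). Regulators of muscle transcription were higher in 3 of 14 and lower in 10 (median -0.01). The part of these lists in the difference between the 72 h arrays was not tested.

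As a gauge of muscle RNA, the 8 genes were averaged after centring each on its own mean over the 7 arrays. The gauge was 0.04 on the control array, -0.05 and 0.09 for the 24 h and 36 h arrays, -0.11 and -0.13 in the 48 h pair and -0.07 and 0.22 in the 72 h pair. The second 72 h array was thus the highest and the 48 h pair the lowest, with the largest gap between arrays 0.35, or 1.27-fold. Relative to the control, the geometric mean signal of the 8 genes was 0.94-fold on the 24 h array and 1.04-fold on the 36 h array. It was 0.90-fold and 0.89-fold in the 48 h pair, and 0.92-fold and 1.13-fold in the 72 h pair. By group the order was 36 h, 72 h, control, 24 h and 48 h. The pooled SD within the pairs was 0.15, nearly all of it from the 72 h pair, whose arrays were 0.29 apart. The largest step between neighbours in that order was 0.0905, from control to 24 h, which is within that SD. The mean of the 48 h pair lay 0.21 below 36 h, 0.19 below the 72 h mean and 0.16 below the control. The SD is that of single arrays and does not measure the spread of such gaps, and no test was made of them. The gap to 72 h rested largely on the second array, with the first at -0.07 beside -0.11 and -0.13 at 48 h. When single members were left out of the average in turn, the second 72 h array remained the highest each time, from 0.17 without Tagln to 0.25 without Myh11. The lowest array was always a 48 h array, but the pair was not always lowest. Without Tagln the first 72 h array was at -0.106 and the first 48 h array at -0.0717, and without Cnn1 they were at -0.0825 and -0.0818. The parietal cell list, centred in the same way, was at 0.80 on the control array, at -0.65 and -0.05 for the 24 h and 36 h arrays, at -0.47 and -0.10 in the 48 h pair and at 0.12 and 0.35 in the 72 h pair. Like the gauge, it was below the control at 24 h and 48 h and higher on the second 72 h array than on the first. Unlike the gauge, it was lowest at 24 h and highest on the control.

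**Figure D3:**
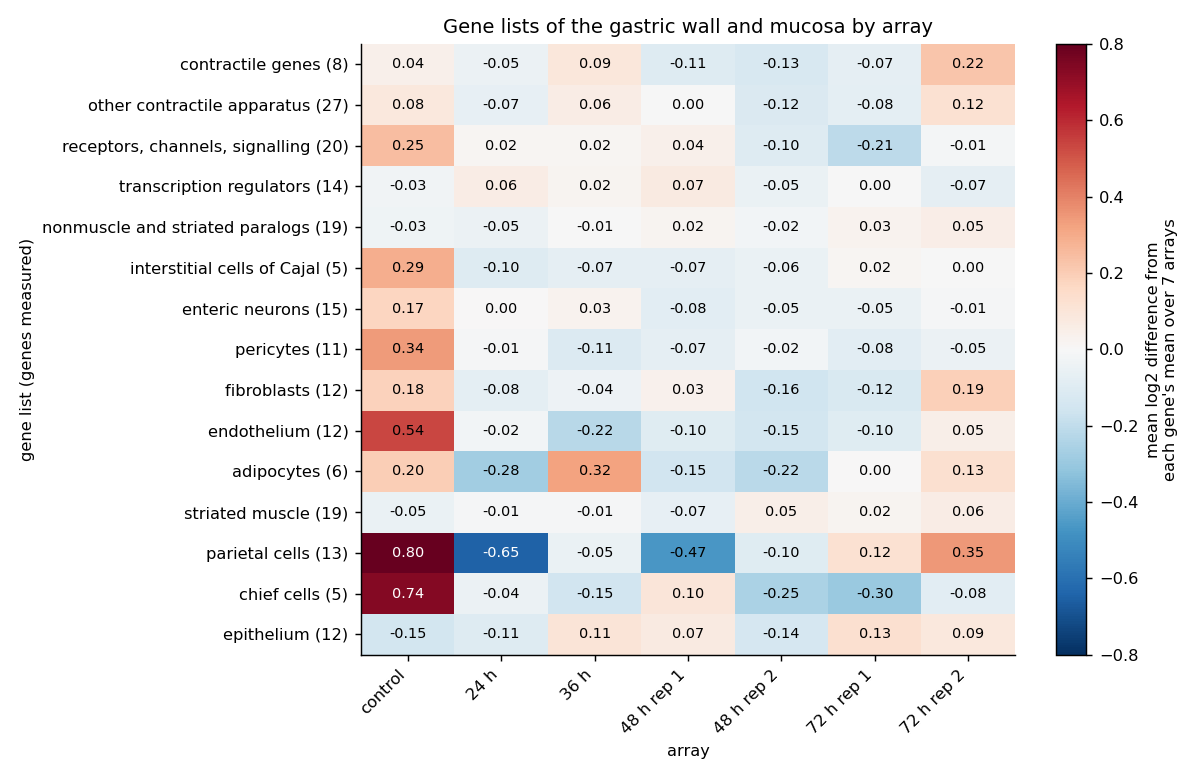
Mean log2 difference of each gene list from its genes' means over the 7 arrays (colour and printed value), with arrays as columns and the number of measured genes in brackets. The contractile genes run from -0.13 to 0.22, whereas parietal cell genes run from -0.65 to 0.80 and endothelial genes reach 0.54 on the control array.

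Other genes of the contractile apparatus, such as light chains and tropomyosins, lay mostly below the control at 48 h. Of 28 listed, 27 were measured, and their median difference from the control was -0.16 on the 24 h array and 0.00 on the 36 h array, with fitted medians of -0.11 for 48 h and -0.05 for 72 h. On the second 72 h array 22 of 27 were higher than on the first, with a median of 0.20. At 48 h 21 of 27 lay below the control and 5 above it, beside 11286 and 10534 of all 22180 genes. In limma 0 of the 27 passed, and an unadjusted p under 0.05 was found for 5 at 48 h and 2 at 72 h, all of them lower. Of all 22180 genes, 2565 and 2219 were lower at that threshold, and 19.7% and 17.9% met it in either direction.

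Individual genes of that list went both ways. Myl9, whose promoter window with its CArG box is printed with that of Acta2, lay below the control on all 6 toxin arrays. Its log2 signal was 10.34 on the control and 9.94 to 10.17 after toxin, and the difference was -0.30 ± 0.09 at 48 h (limma adjusted p = 0.237). Cald1 (caldesmon, an actin-binding inhibitor of contraction) was at -0.50 ± 0.20 and Cav1, caveolin, at -0.54 ± 0.16 at 48 h. The tropomyosin genes Tpm1 and Tpm2 were at -0.13 and 0.07 at 48 h, and the actin crosslinker Flna at 0.17 ± 0.23. Of the 27 genes, 2 lay above the control on all 6 toxin arrays, against 20.2% of all genes. These were Tpm2 and Jph2, a protein that joins calcium stores to the cell surface. Below the control on all 6 lay 7 of the 27, Myl9 among them, against 22.6% of all genes.

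Receptors, channels and signalling genes of smooth muscle included some of the largest differences from the control in the muscle lists. Of 20 measured, 12 were below the control on all 6 toxin arrays and 5 above it on all 6, where 22.6% and 20.2% of all genes were. Their median difference from the control was -0.24 on the 24 h array and -0.23 on the 36 h array, and the fitted median was -0.21 for 48 h and -0.39 for 72 h. Chrm2, the muscarinic acetylcholine receptor M2, had a log2 signal of 7.98 on the control array, 7.43 and 7.53 for the 24 h and 36 h arrays, 7.31 and 7.22 in the 48 h pair and 6.90 and 7.32 in the 72 h pair, with no toxin array reaching the control. It was at -0.87 ± 0.21 at 72 h (limma adjusted p = 0.210). Tacr2, the neurokinin A receptor that drives gut contraction, was at 8.12 on the control and at 6.81 to 7.43 on the toxin arrays, or -1.15 ± 0.20 at 72 h (limma adjusted p = 0.166).

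Gucy1a1, a subunit of the nitric oxide receptor guanylate cyclase, was at -0.81 ± 0.17 at 48 h and -1.05 ± 0.17 at 72 h. Plcb4, a phospholipase C, was lowest of the list, at -1.14 ± 0.09 at 48 h and -1.18 ± 0.09 at 72 h (limma adjusted p = 0.120 and 0.146), and already -1.11 at 24 h. Chrm3, the muscarinic M3 receptor that triggers contraction, was at -0.50 ± 0.18 and -0.51 ± 0.18. Whole corpus RNA does not show which cells the signal of this or any other gene of the list came from. Opposite in sign, Cacna1c, the pore of the L-type calcium channel, was at 0.31 ± 0.05 at 48 h, and Ryr2, a calcium release channel, at 0.48 ± 0.07. In limma 0 of the 20 passed, and 8 at 48 h and 11 at 72 h had an unadjusted p under 0.05, against 19.7% and 17.9% of all genes. All of these rest on the lone control array, so a trait of that array and a response to toxin cannot be told apart. The difference between this list and the contractile genes was not tested.

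**Figure D4:**
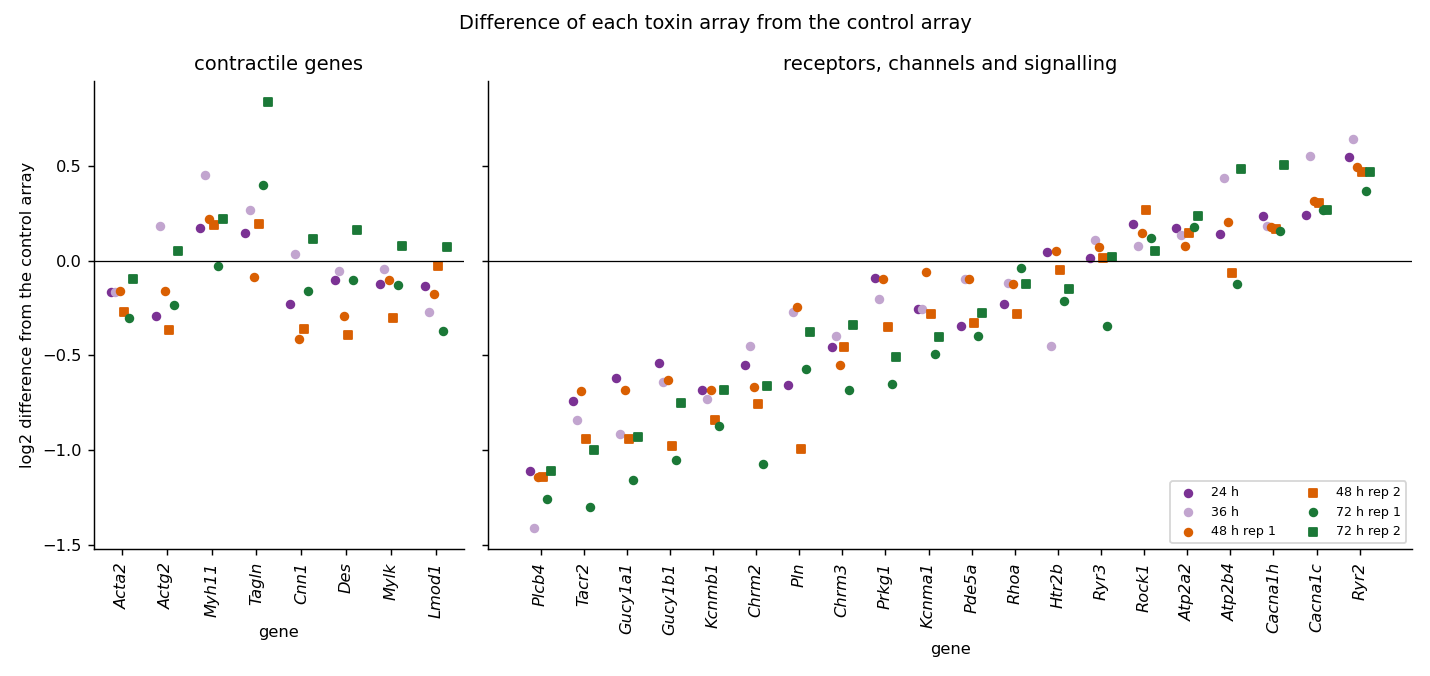
Log2 difference from the control array on each of the 6 toxin arrays, for the 8 contractile genes (left) and the 20 measured receptor, channel and signalling genes of smooth muscle (right, ordered by mean difference). The contractile genes scatter about 0 with Tagln reaching 0.84 on the second 72 h array, whereas the points of Plcb4 all lie between -1.41 and -1.11.

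Regulators of muscle transcription lay on both sides of the control. Myocd, myocardin, which activates contractile genes with SRF, read 6.47 in log2 signal on the control array and 6.27 to 6.35 on the toxin arrays, or -0.17 ± 0.05 at 48 h (limma adjusted p = 0.230) and -0.18 ± 0.05 at 72 h (limma adjusted p = 0.229). Srf was at -0.23 ± 0.13 and -0.07 ± 0.13, and the coactivator genes Mrtfa and Mrtfb were at -0.07 and 0.26 at 48 h. Of 14 regulators, 7 were above and 7 below the control at 48 h, with 0 passing and 3 at an unadjusted p under 0.05 (Tead1 and Notch2 higher, Myocd lower), a share near the 19.7% of all genes. Klf4, which represses smooth muscle genes and is also an epithelial transcription factor, was at 0.50 ± 0.27 at 48 h and 0.66 ± 0.27 at 72 h. Larger falls than those of Myocd and Srf were seen at 72 h for Foxf1 and Tshz3. Foxf1 read 8.12 in log2 signal on the control array, 7.90 and 7.565 in the 48 h pair and 7.65 and 7.39 in the 72 h pair. Tshz3 read 6.06 on the control array, 6.14 and 5.46 in the 48 h pair and 5.53 and 5.57 in the 72 h pair.

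Family members expressed outside smooth muscle also lay on both sides of the control. The cytoplasmic actin genes Actb and Actg1 were at -0.03 and 0.01 at 48 h. Myh9, a nonmuscle myosin heavy chain, was above the control on all 6 toxin arrays, with log2 signals of 8.40 on the control and 8.88 to 9.05 after toxin, and was at 0.53 ± 0.09 at 48 h (limma adjusted p = 0.144). Cnn3, the acidic calponin, was at 11.21 on the control and 10.14 to 10.76 after toxin, or -0.91 ± 0.21 at 48 h (limma adjusted p = 0.181). Over the 19 paralogs the median was 0.03 at 48 h and 0.07 at 72 h, with 0 passing in limma and 2 at an unadjusted p under 0.05 in each, against 19.7% and 17.9% of all genes.

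Markers of neighbouring cells were read beside the gauge. Striated muscle markers were dim, with list means of 4.47 to 4.60, and their median differed from the control by 0.00 at 48 h and 0.07 at 72 h. The pericyte list had a mean log2 signal of 6.37 on the control and 5.92 to 6.02 on the toxin arrays, with Rgs5, a regulator of G protein signalling in mural cells, at 10.94 against 9.85 to 10.33. Among markers of interstitial cells of Cajal, the pacemakers of gut muscle, Kit was at 8.39 on the control and 6.49 to 7.43 after toxin. Of the 5 such markers measured, 4, Kit among them, lay below the control on all 6 toxin arrays, where 22.6% of all genes did. The channel gene Ano1 went the other way, at 7.78 and 8.07 to 8.57. Both Kit and Ano1 are also expressed in other cell types. Enteric neuron markers had a mean of 5.25 on the control and at most 5.11 after toxin. Endothelial markers had a mean of 6.76 on the control and at most 6.26 after toxin. The contractile genes had a mean of 9.41 on the control and 9.24 to 9.59 after toxin. The control thus lay inside the range of the toxin arrays. It did so too for the other contractile apparatus genes (7.72 against 7.52 to 7.76) and the regulators of muscle transcription (6.94 against 6.90 to 7.04). The fibroblast list was alike (7.83 against 7.49 to 7.84), with its genes split between both sides of the control. For the smooth muscle signalling, Cajal cell, pericyte, enteric neuron and endothelial lists the control lay above that range. The list for mesothelium, the layer that covers the muscle coat, was also dim, with 5 genes. Its mean was 4.45 on the control, below the 4.60 to 5.25 after toxin. That mean was highest on the lone 24 h array, where the genes lay 0.35 (Wt1) to 1.70 (Upk1b) above the control. Their part in the results was not tested.

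The genes whose profiles were most like the contractile genes were sought among 10237 bright genes with a range of at least 0.5 times that of the gauge (0.35). Likeness was the root mean square difference between centred log2 profiles over the 7 arrays, with a median of 0.18 over these genes. The 10 closest were Med25, Cox14, Amt, Mapk11, Ocel1, Psd, Synj1, Cyb5r1, Cnksr1 and Dusp3, at 0.03 to 0.06, and 0 of them were in the smooth muscle lists. Those lists hold 27, 14 and 20 measured genes, few beside the genes searched, so 0 of 10 says little. The closest genes of those lists were Ppp1r14a, an inhibitor of myosin phosphatase, ranked 38th, and Actn1, an actinin, ranked 67th, both named after their values were seen. The median distance was 0.14 over the contractile apparatus list. Among the members, Mylk was closest to the shared profile, at 0.06, and Tagln furthest from it, at 0.22. Med25, a Mediator subunit, had log2 signals of 7.37 on the control array, 7.28 and 7.36 for the 24 h and 36 h arrays, 7.27 and 7.21 in the 48 h pair and 7.30 and 7.57 in the 72 h pair. Ranked by this measure together with the members, Mylk stood 19th and Des 201st, so each of the 10 genes lay closer to the shared profile than any member did. The 10 were picked as the closest of 10237 genes, so that order follows largely from the search.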

How the data were processed

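RNA extracted from snap-frozen corpus was converted to biotin-tagged cDNA and hybridised to Affymetrix arrays, 1 per sample. The log2 signals were computed by the authors with RMA in Partek, per the submitters' processing notes, and deposited for 41345 probe sets. The sources used here give no version of either. Array medians ran from 4.56 to 4.71, and the values entered the analysis unaltered. Arrays have no read depth, and their number limits the precision.

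By the platform annotation, 23521 probe sets named 1 gene, 1814 several and 16010 none. The brightest per gene was kept, which gave 22180 genes. Group means over all 7 arrays were fitted in R 4.3.3 with limma 3.58.1, using lmFit, eBayes and two-sided tests. The spread came from the 48 h and 72 h pairs, and the lone arrays were assumed to vary alike. RMA left equal values within the pair for 2485 genes (48 h) and 2367 genes (72 h). A second fit gave the change per 24 h across toxin arrays. A gene was called at an adjusted p under 0.05 (Benjamini-Hochberg, all genes). For the single arrays at 24 h and 36 h, differences of 2-fold were counted. The fit was tested on simulated data.

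The members and lists were chosen with earlier results of these data known. Named genes include the members and the 10 genes most like the members' mean profile. Genes named from a list came from its first 6 or its 3 largest differences each way. Not all of these are named, and some lists have none named. Ppp1r14a and Actn1 were named after their values were seen. Alternatives covered scaling, probe sets, dim genes, eBayes, single arrays and the replicate block.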

Additional observations from a re-analysis of the deposited data

How the results depend on the processing

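With at most 2 arrays in a group, the intervals of the member differences were wide, and 0 of the 8 contractile genes were called under any alternative run. Over all genes the calls went from 0 at 48 h to 7 after repeated quantile normalisation and 77 after subtraction of array medians. At 72 h against control they went from 0 to 5 and 13, with 0 members among them. With single 48 h or 72 h arrays left out, the median over the members ran from -0.29 to -0.16 at 48 h, from -0.14 to 0.097 at 72 h, from 0.052 to 0.30 at 72 h against 48 h, and from -0.042 to 0.095 for the slope.

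Single members changed sign in 22 cases, 18 of them on leaving out a 48 h or 72 h array and none past 0.18 in size. Repeated quantile normalisation gave 0.0012 for Mylk at 72 h against control and -0.035 for Acta2 at 72 h against 48 h. The slope of Actg2 was -0.064 without the 24 h array and that of Lmod1 -0.013 without the 36 h array. With single 48 h or 72 h arrays left out, Tagln at 48 h ran from -0.088 to 0.20. At 72 h against control the values ran from -0.23 to 0.052 for Actg2, -0.027 to 0.22 for Myh11, -0.16 to 0.11 for Cnn1, -0.10 to 0.16 for Des, -0.13 to 0.080 for Mylk and -0.37 to 0.075 for Lmod1. At 72 h against 48 h they ran from -0.088 to 0.12 for Acta2, -0.23 to 0.013 for Myh11 and -0.27 to 0.18 for Lmod1. Over these same omissions slopes ran from -0.074 to 0.028 for Acta2, -0.053 to 0.089 for Actg2, -0.026 to 0.11 for Cnn1, -0.031 to 0.10 for Des, -0.026 to 0.079 for Mylk and -0.091 to 0.13 for Lmod1. Without the 36 h array the slope was 0.11 for Actg2 and 0.14 for Cnn1, and without the 24 h array it was 0.16 for Des and -0.20 for Myh11. The cause was not tested.

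The 48 h and 72 h arrays share only replicate numbers, and across genes, which share their arrays, the pair differences correlated at -0.13. The replicate block left 0 of 8 members called at 72 h against 48 h, with unadjusted p under 0.05 for Cnn1 and Tagln in place of Cnn1 and Des, beside 1341 of all 22180 genes. With the 72 h numbers crossed, chosen after seeing the data, 0 genes were called and 1396 had an unadjusted p under 0.05, with Des the 1 member among them.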
